A study of Homo sapiens with 12 samples.

Results

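The genes described here are 31 direct targets of the transcription factor p53 whose products act outside cell cycle kinase inhibition, the BCL2 family and the death receptors. They were picked by symbol, and all 31 stand among the 18304 gene symbols of the count tables. RNA was sequenced from a pair of established human acute myeloid leukaemia (AML) cell lines, with 3 libraries in each of 4 groups: MOLM-13 cells given 75 nM selinexor, MOLM-13 cells given vehicle (DMSO), OCI-AML2 cells given 200 nM selinexor and OCI-AML2 cells given vehicle, all for 36 h. Per the series' design text the 3 libraries of a group come from independent cultures. MOLM-13 carries a KMT2A fusion and an internal tandem duplication of FLT3; MOLM-13 and OCI-AML2 are each a single line grown alone in culture, so host and marrow cells are absent. Because each line had its own dose, line and dose cannot be told apart in any comparison between the lines.

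p53 is held at a low level by the ubiquitin ligase MDM2, and when it is stabilised it binds DNA as a tetramer and switches on genes that stop the cell cycle, repair DNA, adjust metabolism, restrain growth signals and prepare cells for death. Selinexor blocks the nuclear export receptor XPO1 (CRM1), whose many cargoes include p53 and other tumour suppressors. The targets followed here are the less often described arms of the p53 programme: secreted and surface proteins, redox and metabolic enzymes, repair factors, growth brakes and kinases, regulators of apoptosis and autophagy, and factors of protein turnover and RNA biology.

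p53 binds a 20-base response element made of a pair of abutting decamers, known as the p53 full-site consensus. That consensus, which reads the same on both strands, was searched with up to 3 mismatches, none of them at the core C and G of either decamer, in RefSeq promoter windows of 300 bases (250 before and 50 after a transcription start, build GRCh38.p14). A window was given for 24 of the 31 genes, with 33 windows in all. A match lay in 6 of the 33 windows (18.2%), against 392 of 35116 windows of all genes (1.12%). The 6 windows are printed because the response element is what makes a gene a direct target; the matched letters are in capitals, and each line runs 5′ to 3′ on the gene's own strand.
GDF15: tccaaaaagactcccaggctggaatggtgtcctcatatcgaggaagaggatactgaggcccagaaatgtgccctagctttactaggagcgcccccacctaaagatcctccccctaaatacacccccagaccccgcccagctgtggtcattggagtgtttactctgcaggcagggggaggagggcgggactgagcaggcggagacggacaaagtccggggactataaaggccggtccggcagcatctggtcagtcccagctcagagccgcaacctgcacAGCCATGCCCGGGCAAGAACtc
SESN1: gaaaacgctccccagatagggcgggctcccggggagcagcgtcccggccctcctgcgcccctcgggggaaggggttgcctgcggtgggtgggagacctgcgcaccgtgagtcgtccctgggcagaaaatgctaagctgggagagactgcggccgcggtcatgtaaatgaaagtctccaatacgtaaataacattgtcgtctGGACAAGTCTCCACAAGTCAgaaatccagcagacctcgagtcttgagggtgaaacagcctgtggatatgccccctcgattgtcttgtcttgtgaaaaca
FDXR: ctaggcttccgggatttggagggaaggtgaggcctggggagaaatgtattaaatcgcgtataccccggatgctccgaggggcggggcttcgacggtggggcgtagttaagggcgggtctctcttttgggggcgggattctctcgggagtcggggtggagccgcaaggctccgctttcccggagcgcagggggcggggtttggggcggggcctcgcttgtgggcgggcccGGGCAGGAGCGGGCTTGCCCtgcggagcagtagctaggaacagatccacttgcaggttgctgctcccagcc
DDB2: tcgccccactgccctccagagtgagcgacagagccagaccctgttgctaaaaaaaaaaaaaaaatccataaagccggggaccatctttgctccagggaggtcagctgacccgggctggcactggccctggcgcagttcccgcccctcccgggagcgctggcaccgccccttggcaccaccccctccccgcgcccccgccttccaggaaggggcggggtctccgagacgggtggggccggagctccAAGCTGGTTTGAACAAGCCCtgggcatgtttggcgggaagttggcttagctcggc
AEN: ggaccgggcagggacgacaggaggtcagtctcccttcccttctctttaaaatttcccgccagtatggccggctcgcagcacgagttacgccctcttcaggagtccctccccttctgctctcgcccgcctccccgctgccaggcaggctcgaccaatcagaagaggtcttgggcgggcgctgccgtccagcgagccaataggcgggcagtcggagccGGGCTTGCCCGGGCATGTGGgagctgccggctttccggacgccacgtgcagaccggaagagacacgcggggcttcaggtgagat
RPS27L: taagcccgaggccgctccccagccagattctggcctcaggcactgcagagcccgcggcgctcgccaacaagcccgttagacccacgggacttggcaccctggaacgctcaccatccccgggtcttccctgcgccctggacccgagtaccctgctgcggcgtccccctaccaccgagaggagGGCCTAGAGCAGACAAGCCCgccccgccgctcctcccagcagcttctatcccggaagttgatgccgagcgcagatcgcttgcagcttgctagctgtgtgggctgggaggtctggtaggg

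The window of GDF15 is chr19:18385908-18386207 on the plus strand, that of SESN1 chr6:109008939-109009238 on the minus strand and that of FDXR chr17:74872945-74873244 on the minus strand. DDB2 lies at chr11:47214724-47215023 on the plus strand, AEN at chr15:88621090-88621389 on the plus strand and RPS27L at chr15:63157428-63157727 on the minus strand. The DDB2 element had 1 mismatch and began 5 bases before the start. The AEN element had 2 mismatches and began 34 bases before it, and the others had 3 mismatches, beginning 69 (RPS27L), 49 (SESN1) and 21 (FDXR) bases before the start and 28 bases after it (GDF15). A match describes letters only, and lists of direct p53 targets were drawn up in part from such elements, so the higher share among these genes is no separate result. GDF15, SESN1, FDXR, DDB2 and RPS27L were called higher with selinexor in both lines, whereas AEN, with a closer match than most, was called lower in both.

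Libraries held 8114892 to 11769061 gene counts, and 3 counts, taken as the floor of detection, correspond to 0.249 to 0.375 CPM, the count scaled to library size. In the labelled AML cells, 12 of 16 myeloid markers in MOLM-13 and 13 of 16 in OCI-AML2 reached a mean of 1 CPM, while KIT, ANPEP and CD68 stayed under that level in both. Summed myeloid marker CPM moved with treatment, at 6452 to 6752 with selinexor against 3849 to 3978 with vehicle in MOLM-13, and at 14615 to 14924 with selinexor against 4018 to 4175 with vehicle in OCI-AML2. In MOLM-13 9 markers of the 12 tested were called higher and 1 lower, and in OCI-AML2 9 of 13 higher and 2 lower; the part of this shift in the results for p53 targets was not tested. Markers of T, B and NK lymphocytes summed to 119.9 to 127 CPM with selinexor and 141 to 147 CPM with vehicle in MOLM-13. In OCI-AML2 they summed to 115 to 121 CPM with selinexor and 71.8 to 75.99 CPM with vehicle. Stromal and epithelial markers summed to 47.2 to 57.7 CPM with selinexor and 20.1 to 21.8 CPM with vehicle in MOLM-13, where KRT8, KRT18 and PECAM1 were the 3 tested and all were called higher. In OCI-AML2 that sum was 89.2 to 92.3 CPM with selinexor and 52.3 to 60.8 CPM with vehicle, nearly all of it PECAM1, which leukocytes also express. Erythroid and megakaryocyte markers summed to 33.6 to 36.2 CPM with selinexor and 32.9 to 35.4 CPM with vehicle in MOLM-13, and to 24.9 to 27.8 CPM with selinexor and 14.2 to 15.1 CPM with vehicle in OCI-AML2, where ITGA2B was the 1 called higher of 3 tested. The part of these lists in the results was not tested either.

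With selinexor, most of these p53 targets were more abundant in both lines. In MOLM-13, 25 of the 29 genes that could be tested were called higher and 2 lower (SESN2 and AEN), at a median log2 fold change of 0.78; among all 11807 genes tested, 31.8% were called higher and 31.8% lower, at a median of 0.0091. In OCI-AML2, 19 of 31 were called higher and 2 lower (AEN and ASCC3), at a median of 0.61, against 31.3% higher and 31.8% lower of all 12086 genes tested, at a median of -0.0016. A call is an adjusted p under 0.05 (edgeR's quasi-likelihood F test, p-values adjusted by Benjamini-Hochberg over all genes tested), and a log2 fold change is selinexor over vehicle. Since 63.6% of all genes tested in MOLM-13 and 63.1% in OCI-AML2 were called in one direction or the other, a call by itself says little, and the direction and size carry more. A rise of at least 2-fold was called for 9 of 29 genes in MOLM-13 and 10 of 31 in OCI-AML2, against 7.27% and 7.23% of all genes tested. GDF15 in both lines and CMBL in MOLM-13 passed the filter on low counts only through their selinexor libraries; without them a rise of at least 2-fold was called for 7 of 27 genes in MOLM-13 and 9 of 30 in OCI-AML2, and any rise for 23 of 27 and 18 of 30. In bulk RNA, a change in the kinds of cells present and a change in RNA per cell cannot be told apart.

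**Figure D1:**
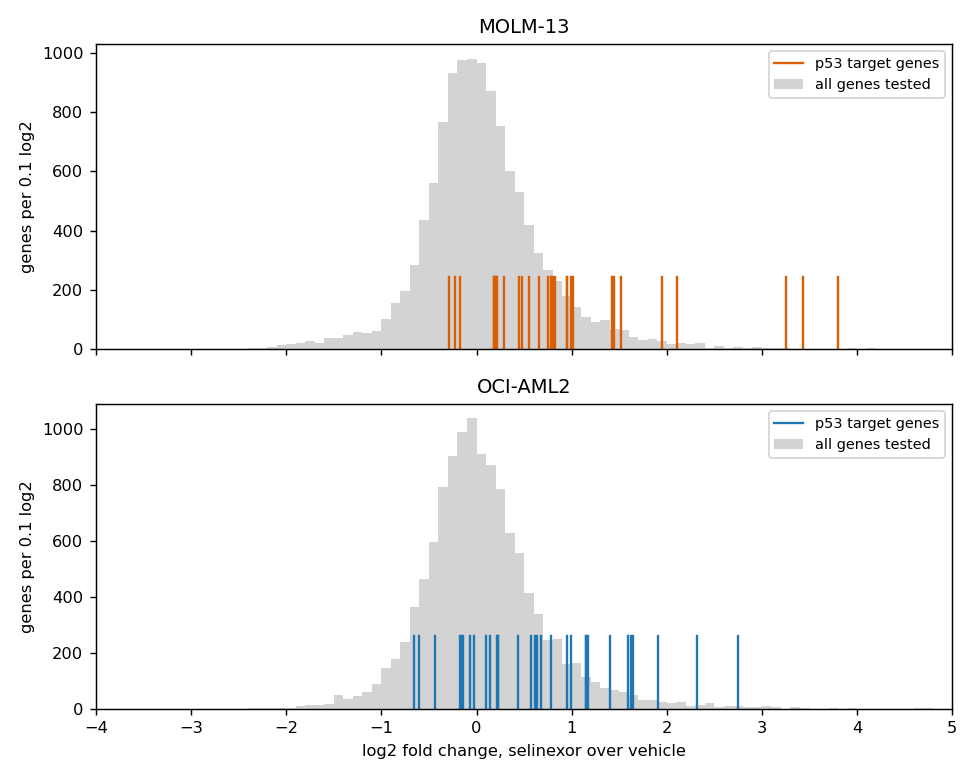
Log2 fold changes (selinexor over vehicle, x axis) of the p53 targets, drawn as coloured lines, over the number of all genes tested per 0.1 log2 (grey bars, y axis), for MOLM-13 above and OCI-AML2 below. The coloured lines lean to the right of the grey peak, with medians of 0.78 in MOLM-13 and 0.61 in OCI-AML2; the height of a coloured line carries no value.

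The 16 genes called higher in both lines were GDF15, CD82, TP53I3, SESN1, FDXR, CMBL, XPC, DDB2, BTG2, PHLDA3, TP53INP1, PIDD1, DRAM1, TRIM22, ZMAT3 and RPS27L. Of the 11202 genes tested in both lines, 21.0% were called higher in both and 23.6% lower in both. The 31 transcripts together held 1809 ± 18.5 CPM with selinexor and 1008 ± 9.88 CPM with vehicle in MOLM-13 (SD, n = 3 each). In OCI-AML2 they held 1662 ± 24.9 CPM with selinexor and 1032 ± 6.25 CPM with vehicle (SD, n = 3 each). All 3 selinexor libraries lay above all 3 vehicle libraries for 25 of the 29 genes tested in MOLM-13 and for 21 of 31 in OCI-AML2, and below them for 1 and 2 genes; among all genes tested the shares above were 32.7% and 33.0%, and below 32.8% and 33.3%. Across the 29 genes tested in both lines, the log2 fold changes had a Spearman rank correlation of 0.756, given as a description, since the genes share libraries.

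**Figure D2:**
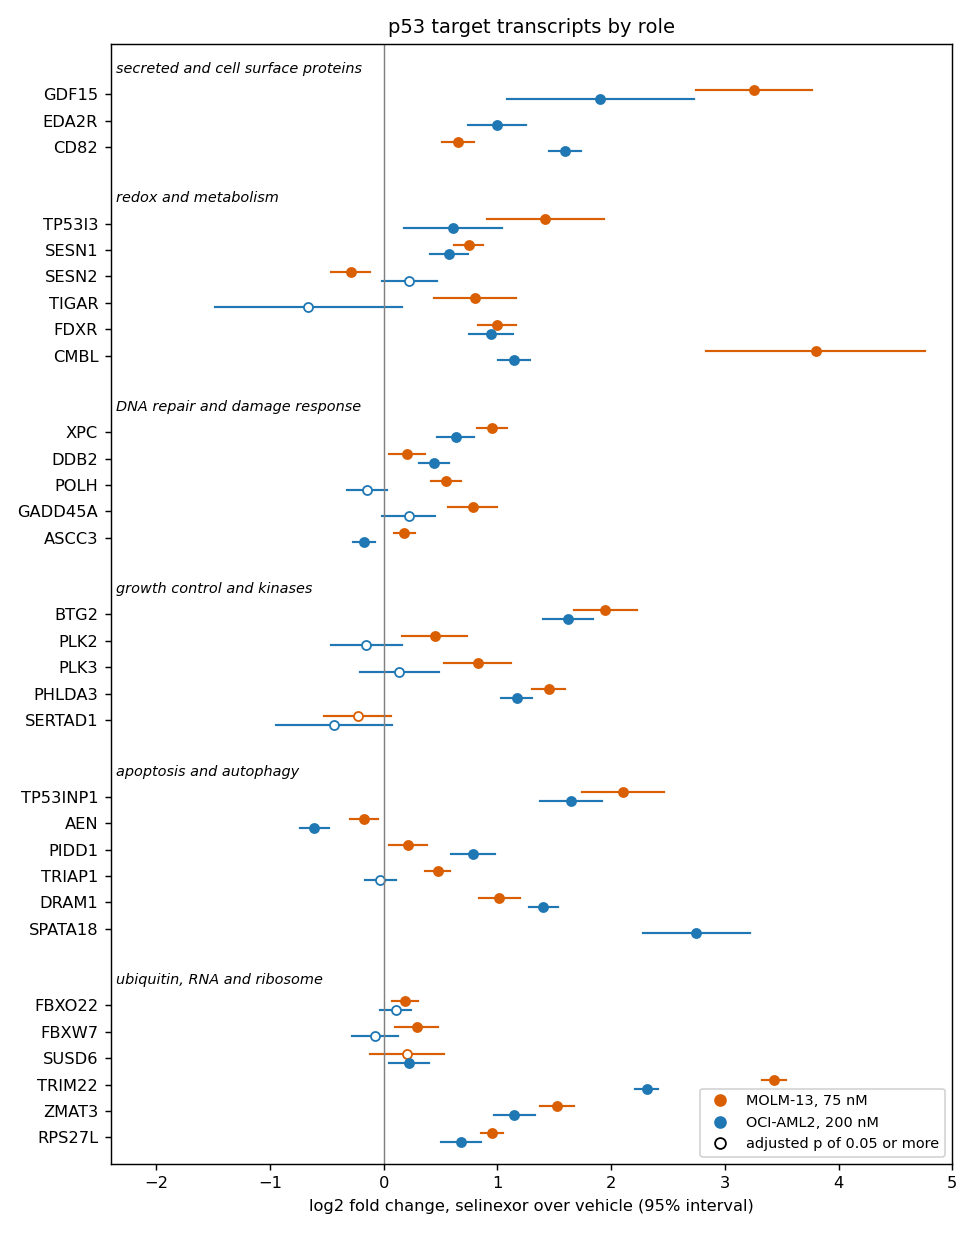
Log2 fold change, selinexor over vehicle, of each p53 target with its 95% interval (x axis), grouped by role (y axis), with MOLM-13 in orange and OCI-AML2 in blue; open points had an adjusted p of 0.05 or more. EDA2R and SPATA18 have no MOLM-13 point because they were not tested there, and TRIM22, CMBL and GDF15 reach the highest values in MOLM-13.

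Secreted and surface proteins rose in every case that could be tested, a set of 2 genes in MOLM-13 and 3 in OCI-AML2. Of all genes tested, 31.8% were called higher in MOLM-13 and 31.3% in OCI-AML2. GDF15 (chromosome 19, 18374731 to 18389176, plus strand, GRCh38, GENCODE 29) encodes a stress-induced cytokine of the TGF-beta superfamily. It had 12.2, 9.18 and 10.996 CPM in the 3 MOLM-13 selinexor libraries, against 1.22, 0.985 and 1.15 CPM in the vehicle libraries. The OCI-AML2 libraries gave 1.89, 1.94 and 3.37 CPM with selinexor, against 0.309, 0.913 and 0.628 CPM with vehicle. The groups did not overlap in either line, though the vehicle values stood close to the floor. GDF15 rose 9.55-fold in MOLM-13 (log2 3.26, SE 0.26, edgeR adjusted p = 3.39e-21) and 3.75-fold in OCI-AML2 (log2 1.91, SE 0.41, edgeR adjusted p = 8.69e-05). From 282 reads with selinexor and 30 with vehicle in MOLM-13, the exact 95% counting interval of the fold was 6.597 to 14.5; from 66 and 21 reads in OCI-AML2 it was 2.29 to 6.53. These intervals cover counting error only. GDF15 passed the filter on low counts through its selinexor libraries in both lines, so it could only be tested because it was high there.

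CD82 (chromosome 11, 44564427 to 44620363, plus strand), a tetraspanin of the plasma membrane known as a metastasis suppressor, had 71.97, 66.7 and 62.7 CPM with selinexor in MOLM-13 and 43.1, 42.3 and 42.8 CPM with vehicle. OCI-AML2 libraries held 99.7, 90.5 and 88.2 CPM with selinexor and 29.9, 30.8 and 31.2 CPM with vehicle. Treated libraries were all higher, and the gap was wider in OCI-AML2, where CD82 rose 3.02-fold (log2 1.60, SE 0.069, edgeR adjusted p = 1.45e-23); in MOLM-13 the rise was 1.57-fold (log2 0.65, SE 0.071, edgeR adjusted p = 6.21e-14). EDA2R, the X-linked receptor for the A2 isoform of ectodysplasin, was detected mainly in OCI-AML2, with 25.95, 18.01 and 21.3 CPM with selinexor against 11.9, 10.9 and 10.04 CPM with vehicle. It rose 1.99-fold there (log2 0.99, SE 0.13, edgeR adjusted p = 6.83e-09). In MOLM-13 only 5 EDA2R reads were counted over the 3 selinexor libraries and 0 over the vehicle libraries, so no fold is given.

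Among the redox and metabolic genes, 5 of 6 were called higher and 1 lower in MOLM-13, and 4 of 6 higher in OCI-AML2. Of all genes tested, 31.8% were called higher in MOLM-13 and 31.3% in OCI-AML2. The MOLM-13 count includes CMBL, which passed the filter on low counts there only through its selinexor libraries. FDXR, the mitochondrial reductase that passes electrons to ferredoxin, rose by nearly the same amount in both lines. Its level was 50.2 ± 2.34 CPM with selinexor and 25.1 ± 1.01 CPM with vehicle in MOLM-13, and 33.9 ± 2.26 CPM with selinexor and 17.6 ± 0.689 CPM with vehicle in OCI-AML2 (SD, n = 3 each). The fold was 1.998 in MOLM-13 (log2 1.00, SE 0.085, edgeR adjusted p = 1.87e-19) and 1.93 in OCI-AML2 (log2 0.95, SE 0.096, edgeR adjusted p = 1.36e-11). TP53I3 (PIG3), a quinone oxidoreductase whose expression has been tied to reactive oxygen species, was a low transcript. It had 4.96, 6.88 and 6.12 CPM with selinexor and 3.16, 1.75 and 1.88 CPM with vehicle in MOLM-13. Its OCI-AML2 values were 5.54, 5.18 and 6.42 CPM with selinexor and 3.71, 3.899 and 3.59 CPM with vehicle. The groups were apart in both lines, by 2.68-fold in MOLM-13 (log2 1.42, SE 0.26, edgeR adjusted p = 1.16e-06) and 1.53-fold in OCI-AML2 (log2 0.61, SE 0.21, edgeR adjusted p = 0.0119). Without OCI-AML2 selinexor library 3 the OCI-AML2 call was lost (log2 0.52, adjusted p = 0.0684).

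The sestrins, which restrain the growth kinase complex mTORC1 and protect against oxidative stress, parted ways. SESN1 (chromosome 6, 108986437 to 109094819, minus strand) had 87.8, 83.5 and 82.7 CPM with selinexor in MOLM-13, against 46.7, 51.5 and 52.8 CPM with vehicle. In OCI-AML2 it had 39.05, 44.6 and 41.3 CPM with selinexor, against 27.8, 27.8 and 28.6 CPM with vehicle. Neither line's groups overlapped, and SESN1 rose 1.68-fold in MOLM-13 (log2 0.75, SE 0.065, edgeR adjusted p = 9.06e-19) and 1.49-fold in OCI-AML2 (log2 0.57, SE 0.082, edgeR adjusted p = 8.24e-08). SESN2, which is also a target of the stress factor ATF4, had 29.1, 33.9 and 28.2 CPM with selinexor in MOLM-13, below its vehicle values of 35.98, 37.3 and 38.5 CPM. There it fell (log2 -0.29, SE 0.088, edgeR adjusted p = 0.00265). The OCI-AML2 libraries gave 16.3, 16.3 and 14.2 CPM with selinexor and 13.6, 13.3 and 13.1 CPM with vehicle, a difference that was not called (log2 0.23, SE 0.12, edgeR adjusted p = 0.09996) although the treated libraries were all higher; it was called with upper quartile scaling (log2 0.28, adjusted p = 0.0417) and in the joint fit (log2 0.27, adjusted p = 0.0371). Beside SESN2, of the 23 listed ATF4 targets tested in MOLM-13 2 were called higher and 18 lower, and of 21 in OCI-AML2 4 higher and 11 lower. PSAT1, of serine synthesis, fell in both lines (log2 -1.84 in MOLM-13, -1.66 in OCI-AML2). PPP1R15A rose in both (log2 0.66 in MOLM-13, 1.00 in OCI-AML2). SLC7A11 rose in OCI-AML2 (log2 1.56) and fell in MOLM-13 (log2 -0.51). GDF15, another ATF4 target, moved the other way from most of that list, and the part of ATF4 in either gene was not tested.

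CMBL, a cytosolic hydrolase that activates ester prodrugs such as olmesartan medoxomil, differed more between the lines than between treatments. In MOLM-13 it had 3.46, 2.92 and 3.499 CPM with selinexor and 0.122, 0.219 and 0.314 CPM with vehicle, the vehicle values being at or under the floor. Its OCI-AML2 values were 82.6, 84.1 and 88.9 CPM with selinexor and 38.6, 42.1 and 34.4 CPM with vehicle. The treated libraries were higher in both lines, 2.22-fold in OCI-AML2 (log2 1.15, SE 0.070, edgeR adjusted p = 1.84e-18). For MOLM-13 the fitted log2 fold change was 3.80 (SE 0.48, edgeR adjusted p = 3.15e-11), and 86 reads with selinexor against 6 with vehicle gave a ratio of 14.7 with an exact 95% counting interval of 6.48 to 41.1. There CMBL passed the filter only through its selinexor libraries. TIGAR, a fructose bisphosphatase that diverts sugar from glycolysis, had 8.53, 10.9 and 10.6 CPM with selinexor and 5.105, 5.47 and 6.596 CPM with vehicle in MOLM-13, where it rose 1.75-fold (log2 0.80, SE 0.18, edgeR adjusted p = 6.58e-05). OCI-AML2 libraries were lower throughout and overlapped, with 1.298, 2.26 and 0.315 CPM with selinexor and 2.47, 1.99 and 1.703 CPM with vehicle (log2 -0.66, SE 0.40, edgeR adjusted p = 0.153). Without OCI-AML2 selinexor library 2, the highest of the 3, a fall was called (log2 -1.37, edgeR adjusted p = 0.0153). TIGAR passed the filter on low counts there through its vehicle libraries, with 2 selinexor and 3 vehicle libraries over the cutoff. TIGAR shares 1711 exonic bases with another annotated gene on its own strand, so its reads may have been split or left uncounted.

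All 5 DNA repair and damage response genes were called higher in MOLM-13, from 1.13-fold (ASCC3) to 1.94-fold (XPC), while OCI-AML2 had 2 higher, 1 lower and 2 not called. Among all genes tested, 31.8% were called higher in MOLM-13 and 31.3% in OCI-AML2, so 2 of 5 in OCI-AML2 was near that share. XPC, the damage sensor of nucleotide excision repair, had 91.2, 87.5 and 85.7 CPM with selinexor in MOLM-13 and 44.1, 44.4 and 47.8 CPM with vehicle. In OCI-AML2 it had 54.7, 50.7 and 53.8 CPM with selinexor and 31.4, 39.3 and 31.6 CPM with vehicle. The groups stood apart in both lines. XPC shares 318 exonic bases with LSM3 and 1140 and 413 with other annotated genes, all on the opposite strand. These libraries carry no strand. XPC rose 1.94-fold in MOLM-13 (log2 0.95, SE 0.066, edgeR adjusted p = 6.52e-25) and 1.55-fold in OCI-AML2 (log2 0.63, SE 0.080, edgeR adjusted p = 6.67e-09). DDB2, its partner in recognising ultraviolet damage in chromatin, rose 1.36-fold in OCI-AML2, to 67.8 ± 2.62 CPM with selinexor against 49.97 ± 1.06 CPM with vehicle (log2 0.44, SE 0.066, edgeR adjusted p = 1.59e-07). In MOLM-13 DDB2 had 44.4 ± 3.12 CPM with selinexor and 38.7 ± 1.41 CPM with vehicle, a rise of 1.15-fold (log2 0.20, SE 0.080, edgeR adjusted p = 0.0208). That call was lost under 4 of the 6 leave-one-out fits, with an adjusted p of 0.109 without selinexor library 2, 0.0857 without vehicle library 3, 0.0724 without selinexor library 1 and 0.0571 without vehicle library 2. It was also lost with total-count scaling (adjusted p = 0.0509) and with DESeq2 (adjusted p = 0.0646).

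POLH, the translesion polymerase eta, had 74.97, 70.6 and 76.1 CPM with selinexor in MOLM-13 and 49.2, 51.8 and 50.5 CPM with vehicle, and rose 1.46-fold (log2 0.55, SE 0.067, edgeR adjusted p = 6.12e-12). Its OCI-AML2 values overlapped, at 29.04 ± 0.817 CPM with selinexor and 32.1 ± 2.69 CPM with vehicle, and were not called (log2 -0.15, SE 0.088, edgeR adjusted p = 0.143). With total-count scaling POLH was called lower there (log2 -0.20, adjusted p = 0.0408). GADD45A, which binds PCNA and the kinase MEKK4 and is also induced by ATF4, rose in MOLM-13. It had 25.8, 28.6 and 27.6 CPM with selinexor and 13.5, 18.7 and 15.3 CPM with vehicle in MOLM-13, a 1.72-fold rise (log2 0.78, SE 0.11, edgeR adjusted p = 6.42e-10), and 16.9 ± 1.09 CPM with selinexor and 14.6 ± 0.495 CPM with vehicle in OCI-AML2 (log2 0.22, SE 0.12, edgeR adjusted p = 0.0928). The OCI-AML2 value was called higher with upper quartile scaling (log2 0.27, adjusted p = 0.0363) and in the joint fit (log2 0.26, adjusted p = 0.0449). ASCC3, a helicase of alkylation repair and of stalled ribosome rescue, was called in opposite directions, which held for 1.22% of the genes tested in both lines with the rise in MOLM-13. Its values were 146, 151 and 151 CPM with selinexor and 136, 129 and 131 CPM with vehicle in MOLM-13 (log2 0.18, SE 0.047, edgeR adjusted p = 5.60e-04). In OCI-AML2 they were 138, 134 and 134 CPM with selinexor and 153, 153 and 151 CPM with vehicle (log2 -0.17, SE 0.047, edgeR adjusted p = 0.001603). The groups did not overlap in either line, and the folds were small, 1.13 in MOLM-13 and 0.888 in OCI-AML2.

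Of the growth arrest genes, BTG2 and PHLDA3 rose in both lines. BTG2 (chromosome 1, 203305491 to 203309602, plus strand), an antiproliferative partner of the CCR4-NOT deadenylase, had 23.8, 23.3 and 23.7 CPM with selinexor in MOLM-13, against 5.83, 6.67 and 5.76 CPM with vehicle. The OCI-AML2 libraries gave 31.1, 33.6 and 33.5 CPM with selinexor, against 11.4, 9.13 and 11.6 CPM with vehicle. Treated libraries were far above vehicle in both lines, 3.86-fold in MOLM-13 (log2 1.95, SE 0.14, edgeR adjusted p = 4.68e-24) and 3.08-fold in OCI-AML2 (log2 1.62, SE 0.11, edgeR adjusted p = 5.24e-17). PHLDA3 (chromosome 1, 201464383 to 201469237, minus strand), a pleckstrin homology protein that competes with AKT for membrane lipids, had 79.7, 90.4 and 89.3 CPM with selinexor in MOLM-13 and 33.4, 33.8 and 27.95 CPM with vehicle. OCI-AML2 libraries held 85.999, 84.9 and 89.8 CPM with selinexor and 37.1, 41.9 and 36.8 CPM with vehicle. Its levels were much alike in both lines, and it rose 2.73-fold in MOLM-13 (log2 1.45, SE 0.073, edgeR adjusted p = 2.53e-34) and 2.25-fold in OCI-AML2 (log2 1.17, SE 0.068, edgeR adjusted p = 2.92e-19). PHLDA3 shares 598 exonic bases with another annotated gene on its own strand.

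The polo-like kinases PLK2 and PLK3, stress-responsive relatives of PLK1, rose in MOLM-13 and were not called in OCI-AML2. PLK3 had 13.7, 13.6 and 17.9 CPM with selinexor in MOLM-13 and 9.24, 7.77 and 8.38 CPM with vehicle (log2 0.83, SE 0.15, edgeR adjusted p = 9.33e-07). PLK2 had 12.3, 13.5 and 14.995 CPM with selinexor there and 8.87, 10.7 and 10.2 CPM with vehicle (log2 0.45, SE 0.15, edgeR adjusted p = 0.00525). In OCI-AML2 the groups overlapped for both kinases, PLK3 at 7.45 ± 0.764 CPM with selinexor and 6.77 ± 0.102 CPM with vehicle (log2 0.14, SE 0.17, edgeR adjusted p = 0.4996) and PLK2 at 8.73 ± 0.95999 CPM with selinexor and 9.71 ± 0.901 CPM with vehicle (log2 -0.15, SE 0.15, edgeR adjusted p = 0.399). SERTAD1, a cofactor of CDK4 and of E2F transcription, was called in neither line and its groups overlapped in both. It had 10.3 ± 0.505 CPM with selinexor and 12.004 ± 1.45 CPM with vehicle in MOLM-13 (log2 -0.23, SE 0.15, edgeR adjusted p = 0.173), and 3.03 ± 0.922 CPM with selinexor and 4.14 ± 0.523 CPM with vehicle in OCI-AML2 (log2 -0.43, SE 0.25, edgeR adjusted p = 0.131). A fall was called in OCI-AML2 without selinexor library 2 (log2 -0.71, adjusted p = 0.0378). BTG2, PLK2, PLK3 and SERTAD1 also answer to growth factor and stress signals as immediate early genes. Of a separate list of such genes, 11 of the 21 tested were called higher and 5 lower in MOLM-13, and 7 of 18 higher and 4 lower in OCI-AML2. JUND rose in both (log2 0.86 in MOLM-13 and 0.41 in OCI-AML2), as did ZFP36 (log2 0.70 in MOLM-13 and 0.83 in OCI-AML2), while EGR1 fell in both (log2 -0.69 in MOLM-13 and -1.33 in OCI-AML2). The part of such signals in these members was not tested.

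Of the 6 apoptosis and autophagy genes, TP53INP1, DRAM1 and PIDD1 rose in both lines and AEN fell in both. TP53INP1, a stress protein that promotes phosphorylation of p53 and takes part in autophagy, had 14.2, 14.1 and 16.1 CPM with selinexor in MOLM-13 and 4.01, 2.85 and 3.46 CPM with vehicle. Its OCI-AML2 values were 17.9, 21.5 and 19.9 CPM with selinexor and 5.87, 6.22 and 6.81 CPM with vehicle. The separation was wide in both, 4.302-fold in MOLM-13 (log2 2.10, SE 0.18, edgeR adjusted p = 8.92e-19) and 3.13-fold in OCI-AML2 (log2 1.65, SE 0.14, edgeR adjusted p = 3.57e-14). DRAM1 (chromosome 12, 101877351 to 102012130, plus strand), a lysosomal membrane protein needed for p53-induced autophagy, had 41.5, 44.4 and 48.98 CPM with selinexor in MOLM-13 and 22.5, 20.7 and 23.3 CPM with vehicle. OCI-AML2 libraries held 109, 111 and 103 CPM with selinexor and 41.02, 40.2 and 40.7 CPM with vehicle. All treated libraries were higher than their vehicle libraries. The rise was 2.02-fold in MOLM-13 (log2 1.02, SE 0.090, edgeR adjusted p = 2.01e-18) and 2.65-fold in OCI-AML2 (log2 1.40, SE 0.063, edgeR adjusted p = 3.73e-23).

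SPATA18 (Mieap), which acts in the turnover of damaged mitochondria, had 9.08, 11.2 and 9.25 CPM with selinexor in OCI-AML2 and 1.13, 1.83 and 1.34 CPM with vehicle. It rose 6.73-fold (log2 2.75, SE 0.23, edgeR adjusted p = 7.92e-14), more than any other of the 31 genes in that line. MOLM-13 libraries held 0 SPATA18 reads with selinexor and 2 with vehicle, so it was not tested there. PIDD1, the scaffold of the caspase-2 activating PIDDosome, had 35.7 ± 4.45 CPM with selinexor and 20.7 ± 1.38 CPM with vehicle in OCI-AML2 (log2 0.79, SE 0.097, edgeR adjusted p = 2.13e-09). PIDD1 shares 107 exonic bases with the ribosomal protein gene RPLP2 on the opposite strand, and these libraries carry no strand. The part of RPLP2 reads in the PIDD1 values was not tested. In MOLM-13 PIDD1 had 38.2 ± 1.34 CPM with selinexor and 33.1 ± 1.56 CPM with vehicle (log2 0.21, SE 0.085, edgeR adjusted p = 0.0245), a call lost with total-count scaling (adjusted p = 0.0561), with no filter on low counts (adjusted p = 0.0578), with DESeq2 (adjusted p = 0.0706), without selinexor library 2 (adjusted p = 0.09997) or vehicle library 3 (adjusted p = 0.129). TRIAP1, a mitochondrial lipid transfer partner that restrains apoptosome formation, had 113, 108 and 114 CPM with selinexor in MOLM-13 and 76.7, 82.6 and 80.9 CPM with vehicle. There it rose 1.39-fold (log2 0.48, SE 0.055, edgeR adjusted p = 8.51e-13); in OCI-AML2 the groups overlapped at 55.5 ± 2.22 CPM with selinexor and 56.7 ± 4.29 CPM with vehicle (log2 -0.028, SE 0.069, edgeR adjusted p = 0.739).

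AEN (chromosome 15, 88621296 to 88632282, plus strand), an exonuclease that degrades DNA and RNA in apoptosis, was the only member called lower in both lines. It had 69.8, 62.2 and 59.5 CPM with selinexor in OCI-AML2, all below the vehicle values of 98.3, 93.8 and 99.9 CPM. In MOLM-13 it had 83.7, 70.8 and 77.5 CPM with selinexor and 81.9, 87.8 and 91.3 CPM with vehicle, and these groups overlapped. AEN fell in OCI-AML2 (log2 -0.61, SE 0.062, edgeR adjusted p = 1.80e-11) under every setting tried. The smaller fall in MOLM-13 (log2 -0.17, SE 0.061, edgeR adjusted p = 0.00934) was not called with upper quartile scaling (log2 -0.10, adjusted p = 0.1303), without selinexor library 2 (log2 -0.11, adjusted p = 0.144) or without vehicle library 3 (log2 -0.14, adjusted p = 0.0772).

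**Figure D3:**
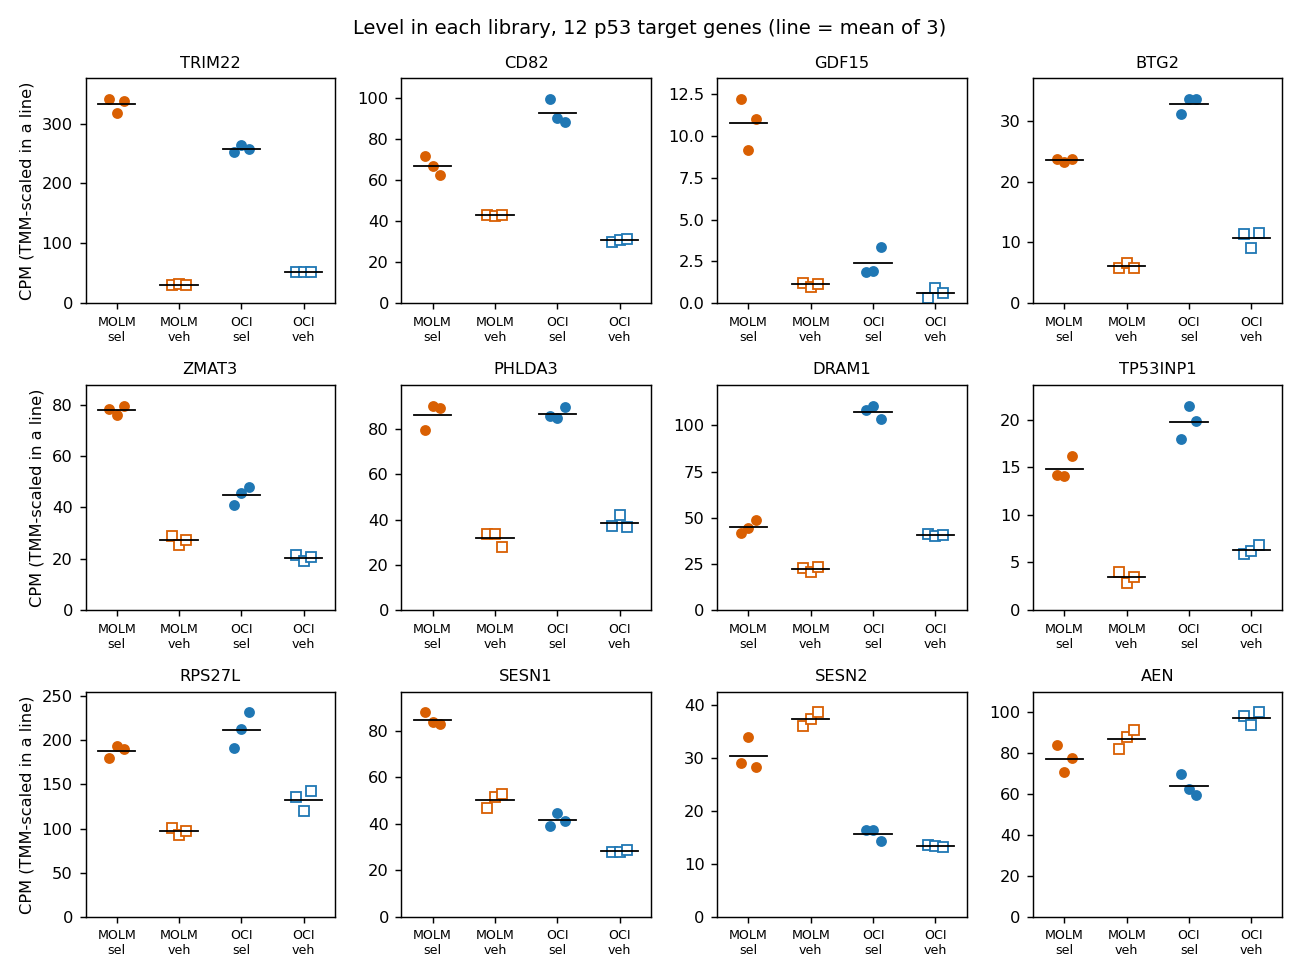
CPM (y axis, from 0) in each of the 12 libraries for 12 p53 targets, with selinexor (filled circles) left of vehicle (open squares) in MOLM-13 (orange) and OCI-AML2 (blue); the line is the mean of 3. Treated libraries lie above vehicle in both lines for all panels except SESN2, which lies below in MOLM-13, and AEN, which lies below in OCI-AML2 and overlaps in MOLM-13.

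TRIM22 (chromosome 11, 5689689 to 5737089, plus strand), a RING-type ubiquitin ligase with antiviral activity, had the smallest adjusted p of the 31 genes in both lines. It had 341, 318 and 337 CPM with selinexor in MOLM-13, against 30.4, 31.95 and 29.9 CPM with vehicle. In OCI-AML2 it had 252, 263 and 258 CPM with selinexor, against 52.1, 52.1 and 51.3 CPM with vehicle. The 3 libraries of a group lay close together and the groups far apart, 10.8-fold in MOLM-13 (log2 3.43, SE 0.054, edgeR adjusted p = 3.82e-78) and 4.97-fold in OCI-AML2 (log2 2.31, SE 0.050, edgeR adjusted p = 1.37e-34). TRIM22 is also induced by interferon. Of a list of type I interferon response genes, 8 of the 19 tested were called higher and 2 lower in MOLM-13 (median log2 0.28), and 13 of 20 higher and 3 lower in OCI-AML2 (median 0.69). STAT2, a subunit of the interferon-activated factor ISGF3, rose in both (log2 1.32 in MOLM-13 and 1.28 in OCI-AML2). TRIM14, also on that list, fell in both (log2 -0.19 in MOLM-13 and -0.32 in OCI-AML2). The part of interferon signalling in TRIM22 was not tested. TRIM22 shares 642 exonic bases with the olfactory receptor gene OR56B1 on the same strand.

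ZMAT3 (chromosome 3, 179017223 to 179072279, minus strand), an RNA-binding zinc finger protein that regulates splicing and transcript stability, had 78.2, 76.02 and 79.6 CPM with selinexor in MOLM-13 and 28.8, 25.5 and 27.2 CPM with vehicle. OCI-AML2 held 40.9, 45.7 and 47.9 CPM with selinexor and 21.4, 18.9 and 20.5 CPM with vehicle. Every treated library was above every vehicle library, 2.87-fold in MOLM-13 (log2 1.52, SE 0.075, edgeR adjusted p = 4.94e-35) and 2.22-fold in OCI-AML2 (log2 1.15, SE 0.089, edgeR adjusted p = 4.25e-15). RPS27L (chromosome 15, 63125872 to 63158021, minus strand), a ribosomal protein that binds MDM2, had 179.9, 193 and 191 CPM with selinexor in MOLM-13 and 100.4, 92.9 and 97.6 CPM with vehicle. Its OCI-AML2 values were 191, 212 and 232 CPM with selinexor and 135, 120.04 and 142 CPM with vehicle. RPS27L rose 1.94-fold in MOLM-13 (log2 0.96, SE 0.048, edgeR adjusted p = 2.52e-34) and 1.601-fold in OCI-AML2 (log2 0.68, SE 0.079, edgeR adjusted p = 2.79e-05). Its close paralog RPS27 was far more abundant, at 3061 ± 166 CPM with selinexor and 2006 ± 182 CPM with vehicle in MOLM-13 (log2 0.61) and 1409 ± 48.2 CPM with selinexor and 1035 ± 48.2 CPM with vehicle in OCI-AML2 (log2 0.45). The handling of reads shared between the paralogs is not given in the sources used, and their part in the RPS27L values was not tested.

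The other ubiquitin-related genes changed little. FBXO22, an F-box protein of a complex that degrades methylated p53, had 89.1 ± 2.71 CPM with selinexor and 78.3 ± 3.78 CPM with vehicle in MOLM-13 (log2 0.19, SE 0.059, edgeR adjusted p = 0.00372), and 54.7 ± 2.74 CPM with selinexor and 50.9 ± 2.41 CPM with vehicle in OCI-AML2 (log2 0.10, SE 0.069, edgeR adjusted p = 0.189; called higher with upper quartile scaling, log2 0.16, adjusted p = 0.0446). It shares 1917 exonic bases with NRG4 on the opposite strand, and these libraries carry no strand. FBXW7, the F-box protein that targets cyclin E and MYC, had 29.8 ± 3.15 CPM with selinexor and 24.3 ± 0.339 CPM with vehicle in MOLM-13 (log2 0.29, SE 0.096, edgeR adjusted p = 0.00642), a call lost without selinexor library 3 (log2 0.21, adjusted p = 0.0778). Its groups overlapped in OCI-AML2, at 24.7 ± 1.53 CPM with selinexor and 26.04 ± 3.61 CPM with vehicle (log2 -0.073, SE 0.10, edgeR adjusted p = 0.5398). SUSD6 (DRAGO), a membrane protein that slows growth and recruits ubiquitin ligases, was called only in OCI-AML2, though its log2 fold changes were alike in both lines. In OCI-AML2 it had 34.3 ± 0.514 CPM with selinexor and 29.4 ± 2.62 CPM with vehicle (log2 0.23, SE 0.087, edgeR adjusted p = 0.0221). In MOLM-13 it had 10.5 ± 2.05 CPM with selinexor and 9.098 ± 1.81 CPM with vehicle (log2 0.21, SE 0.16, edgeR adjusted p = 0.267). The difference between the lines was not called (log2 -0.066, SE 0.18, edgeR adjusted p = 0.822). The OCI-AML2 call was lost without vehicle library 3 (log2 0.15, adjusted p = 0.167), without selinexor library 3 (log2 0.22, adjusted p = 0.0628), with total-count scaling and with DESeq2.

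Tested directly, the selinexor effect differed between the lines for 18 of the 29 genes that could be tested in both, 13 with a higher log2 fold change in MOLM-13 and 5 with a lower one. Among all 12530 genes in the joint fit, 11.1% were called higher and 19.0% lower, or 30.1% in all. The split of the calls over all genes depended on scaling, with 36.8% of them higher under TMM, 44.4% with DESeq2 size factors, 49.2% with upper quartile scaling and 53.04% with total counts only. The widest gap was for CMBL, at 2.60 log2 (SE 0.45, edgeR adjusted p = 2.57e-06), which rests on 6 vehicle reads in MOLM-13. TRIM22 rose by a further 1.07 log2 in MOLM-13 (SE 0.077, adjusted p = 4.68e-21), and its vehicle level was lower there. TIGAR, which rose in MOLM-13 and was not called in OCI-AML2, differed by 1.42 (SE 0.41, adjusted p = 0.005697); leaving out OCI-AML2 selinexor library 2 gave 2.12, and leaving out library 3 gave 0.94 with the call lost (adjusted p = 0.07403).

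Of the 8 genes called higher in MOLM-13 and not called in OCI-AML2, the difference was called for 6: TIGAR, POLH (0.65, SE 0.11, adjusted p = 1.16e-06), PLK3 (0.64, SE 0.23, adjusted p = 0.0264), PLK2 (0.55, SE 0.21, adjusted p = 0.0403), GADD45A (0.52, SE 0.16, adjusted p = 0.00998) and TRIAP1 (0.46, SE 0.088, adjusted p = 2.13e-05). For FBXW7 and FBXO22 it was not, with 95% intervals of 0.036 to 0.59 and -0.15 to 0.22 log2; the FBXW7 difference was called under the 3 other scalings (adjusted p = 0.0488 with DESeq2 size factors, 0.0342 with upper quartile scaling and 0.0268 with total counts) and when any of 4 single libraries was left out (adjusted p down to 0.007004). ASCC3, called in opposite directions, differed by 0.30 (SE 0.067, adjusted p = 1.88e-04). The 5 genes with the smaller or lower value in MOLM-13 were CD82 (-0.99, SE 0.10, adjusted p = 7.38e-14), PIDD1 (-0.62), SESN2 (-0.56), DRAM1 (-0.44) and DDB2 (-0.28, adjusted p = 0.02696).

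With TMM scaling and all libraries, no difference was called for 11 genes, among them FDXR, BTG2, SESN1, TP53INP1, PHLDA3 and GDF15. The FDXR difference was 0.0041 log2 with a 95% interval of -0.26 to 0.27. For SESN1 the interval was -0.080 to 0.34, for BTG2 -0.079 to 0.64 and for TP53INP1 -0.063 to 0.89 log2. The GDF15 interval was 0.22 to 2.39 log2 (adjusted p = 0.05904), and the PHLDA3 interval was 0.029 to 0.44 log2 (adjusted p = 0.0765). Of these 11 genes, 6 were called in no setting tried (SESN1, FDXR, SERTAD1, TP53INP1, FBXO22 and SUSD6) and 5 gained the call in at least 1, each with the higher value in MOLM-13. PHLDA3 gained it under all 3 other scalings (adjusted p = 0.0384 with DESeq2 size factors, 0.0237 with upper quartile scaling and 0.0167 with total counts) and when any of 4 single libraries was left out. GDF15 gained it with upper quartile scaling (adjusted p = 0.0483), with total counts (adjusted p = 0.0453) and without any of 3 single libraries (log2 1.42 to 1.68). BTG2 gained it without OCI-AML2 vehicle library 2 (log2 0.48, adjusted p = 0.0428) and TP53I3 without MOLM-13 vehicle library 1 (log2 1.05, adjusted p = 0.0272). Of the 18 differences, 10 were called in every setting tried (CMBL, POLH, ASCC3, AEN, TRIAP1, TRIM22, CD82, SESN2, PIDD1 and DRAM1). The other 8 lost the call in at least 1 setting: XPC, GADD45A, PLK2, PLK3, ZMAT3, RPS27L, TIGAR and DDB2. DDB2 lost it under the 3 other scalings, with DESeq2 and when any of 7 single libraries was left out, and RPS27L (adjusted p = 0.0469) when any of 6 single libraries was left out.

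**Figure D4:**
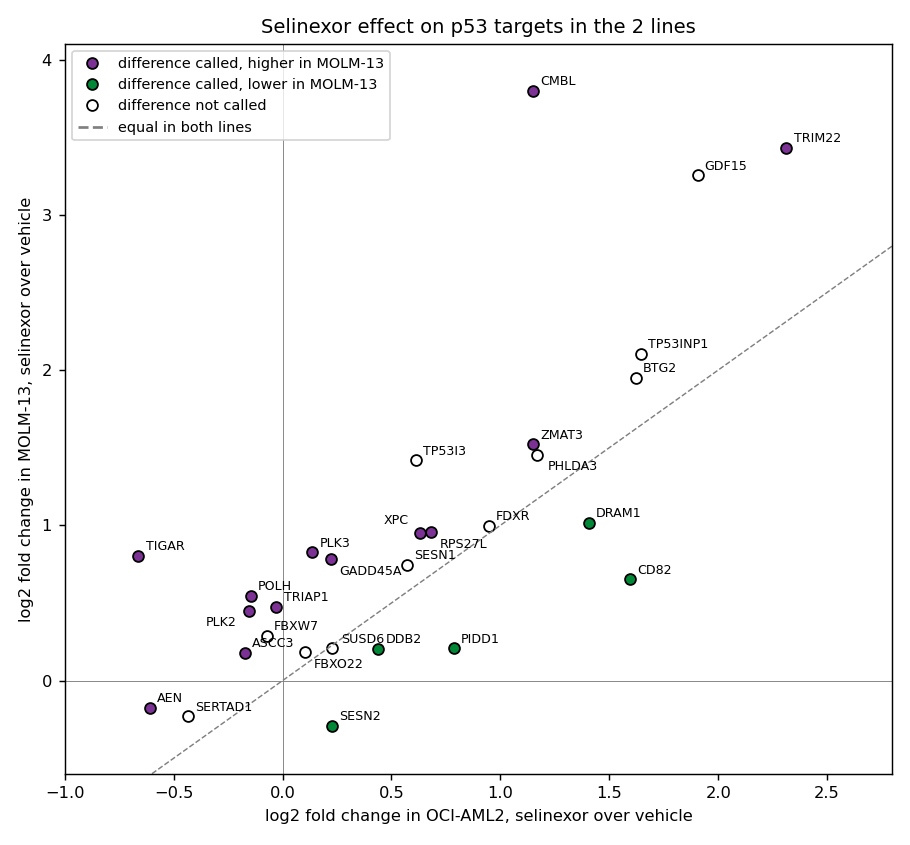
Log2 fold change of each p53 target tested in both lines, with OCI-AML2 on the x axis and MOLM-13 on the y axis; purple points were called higher and green points lower in MOLM-13 by the test of the difference, and open points were not called. Most points lie above the dashed line of equal change, while CD82, DRAM1, PIDD1, DDB2 and SESN2 lie below it and SUSD6 lies just below it.

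Without drug, 12 of 31 genes were called higher in MOLM-13 and 13 lower (38.7% and 41.9%). These shares lay near the 35.0% and 36.2% of the 12530 genes in the joint fit (71.2% in all). Those higher in MOLM-13 included SERTAD1, at 12.1 ± 1.47 CPM in MOLM-13 and 4.06 ± 0.517 CPM in OCI-AML2 (log2 1.58, SE 0.18, edgeR adjusted p = 9.91e-13), and SESN2, at 37.5 ± 1.31 CPM in MOLM-13 and 13.1 ± 0.269 CPM in OCI-AML2 (log2 1.52, SE 0.10, adjusted p = 7.24e-25). SESN2, TIGAR, SESN1, FDXR, XPC, POLH, CD82, PIDD1, TRIAP1, FBXO22, ZMAT3 and SERTAD1 make up that group. Genes lower in MOLM-13 included SUSD6, at 9.16 ± 1.82 CPM in MOLM-13 and 28.8 ± 2.59 CPM in OCI-AML2 (log2 -1.66, SE 0.12, adjusted p = 7.66e-22), and TRIM22, at 30.98 ± 1.07 CPM in MOLM-13 and 50.9 ± 0.528 CPM in OCI-AML2 (log2 -0.72, SE 0.064, adjusted p = 1.41e-17).

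A trio of transcripts was close to absent in MOLM-13. CMBL had 6 reads over the 3 MOLM-13 vehicle libraries and 1266 over those of OCI-AML2, so that it was 173-fold higher in OCI-AML2 per depth (exact 95% counting interval 79.1 to 471). SPATA18 had 2 reads in MOLM-13 and 48 in OCI-AML2, a ratio of 19.6 (interval 5.15 to 167). EDA2R had 0 reads over the 3 MOLM-13 vehicle libraries, which makes it at least 32.5-fold higher in OCI-AML2, taking 3 counts per library as the floor. Selinexor left EDA2R and SPATA18 at or near 0 in MOLM-13, while CMBL came above the floor in all 3 treated libraries. Levels per kilobase were taken over all annotated exons of a gene, merged, which can be longer than the transcript present. On that scale TRIAP1 ranked first of the 31 with vehicle in both lines, at 55.5 CPM per kb in MOLM-13 and 39.3 CPM per kb in OCI-AML2, followed by AEN at 14.5 and 16.2 CPM per kb. The ranking depends on these lengths. RPS27L, with 9127 merged bases against 1442 for TRIAP1, had more CPM with vehicle. It had 97.0 against 80.1 in MOLM-13 and 132 against 56.7 in OCI-AML2. With selinexor TRIM22 reached 55.2 CPM per kb in MOLM-13 and 42.8 CPM per kb in OCI-AML2.

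**Figure D5:**
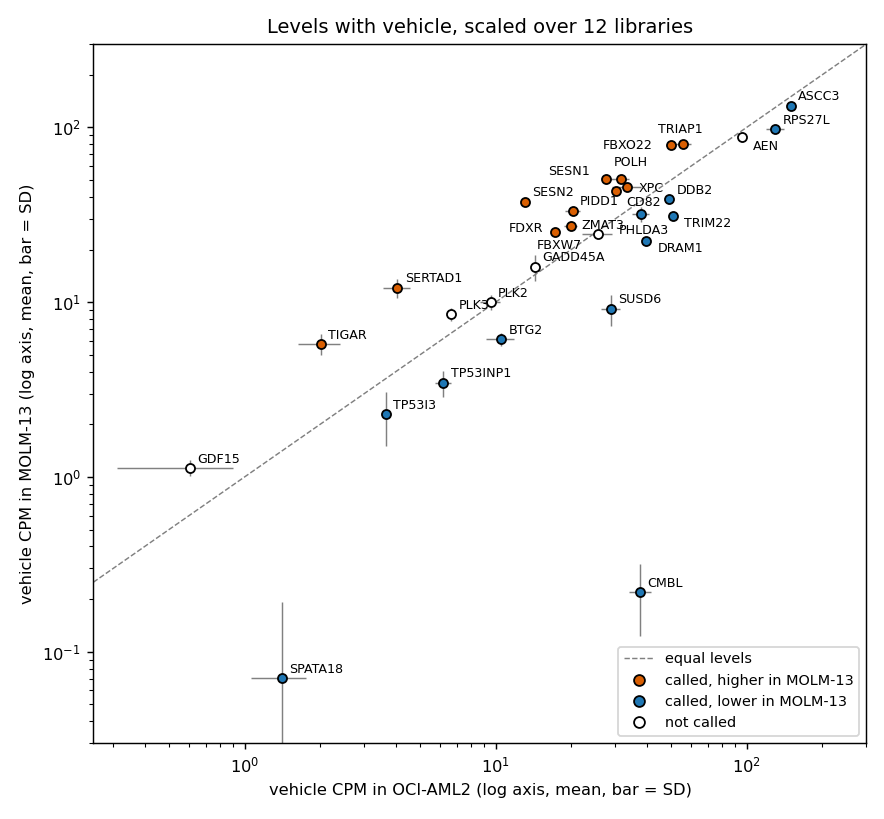
Mean vehicle CPM of each p53 target (log axes, scaled over the 12 libraries) in OCI-AML2 (x axis) and MOLM-13 (y axis), with SD bars over 3 libraries, cut at the axis for SPATA18; orange points were called higher and blue points lower in MOLM-13. CMBL and SPATA18 lie far under the dashed line of equal levels, and EDA2R, at 0 in MOLM-13, cannot be drawn on a log axis.

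Of a list of 44 further p53-induced genes, 25 of the 39 tested in MOLM-13 were called higher and 6 lower (median log2 0.51), and 24 of 40 in OCI-AML2 higher and 8 lower (median 0.28). CDKN1A, the CDK inhibitor p21, had 386, 406 and 404 CPM with selinexor in MOLM-13 and 131, 139 and 144 CPM with vehicle (log2 1.53, SE 0.040, edgeR adjusted p = 1.20e-57). The OCI-AML2 libraries gave 149, 139.9 and 139 CPM with selinexor and 52.5, 51.3 and 48.05 CPM with vehicle (log2 1.49, SE 0.058, edgeR adjusted p = 2.89e-25). The groups were apart in both lines. MDM2, the ligase that degrades p53, had 625, 618 and 674 CPM with selinexor in MOLM-13 and 169, 162 and 155 CPM with vehicle (log2 1.98, SE 0.039, edgeR adjusted p = 1.56e-68), against 204 ± 3.64 CPM with selinexor and 125 ± 7.89 CPM with vehicle in OCI-AML2 (log2 0.71, SE 0.048, edgeR adjusted p = 7.04e-17). CCNG1, cyclin G1, rose in both lines, by log2 values of 0.80 in MOLM-13 (SE 0.042, edgeR adjusted p = 7.93e-33) and 0.77 in OCI-AML2 (SE 0.047, edgeR adjusted p = 1.36e-18). Among the listed genes that fell were E2F7, a transcriptional repressor, in both lines (log2 -1.47 in MOLM-13 and -1.31 in OCI-AML2), PMAIP1 (NOXA), a BH3-only death factor, also in both (log2 -0.83 in MOLM-13 and -0.88 in OCI-AML2) and TNFAIP8 in MOLM-13 (log2 -0.59, with an uncalled 0.017 in OCI-AML2).

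In a list of p53 and its regulators, which includes MDM2, 5 of the 9 tested in MOLM-13 were called higher and 2 lower. In OCI-AML2 4 of 10 were called higher and 2 lower. The shares called higher among all genes tested were 31.8% in MOLM-13 and 31.3% in OCI-AML2. The kinase gene ATM rose in both lines (log2 0.92 in MOLM-13 and 0.68 in OCI-AML2). USP7, which removes ubiquitin from MDM2 and p53, and the checkpoint kinase gene CHEK2 fell in both lines, USP7 by log2 values of -0.44 in MOLM-13 and -0.57 in OCI-AML2. These are RNA levels; proteins were not measured.

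The authors' deposited table for MOLM-13 lists vehicle over selinexor, and its signs were turned here. All 31 genes were present in the authors' deposited table, and 29 of the 29 tested above had the same sign. The largest absolute difference between the authors' deposited table and the values above was 0.0771 log2.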

How the data were processed

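Polyadenylated RNA of 12 libraries was sequenced without strand information, per the labels' protocols. Per the submitters' processing notes, STAR, R 3.6.1 and DESeq2 were used with build hg38; neither the counter nor the annotation is named. The authors deposited 1 table per line of whole-number counts per gene symbol, with columns marked by treatment letter and no replicate number: libraries are numbered here as the columns stand, as names without order. Each table's line was read from its initial. The authors also deposited log2 fold changes for MOLM-13 (vehicle over selinexor), used only for a comparison of signs and sizes. From the counts, edgeR 4.0.16 in R 4.3.3 was run per line: TMM scaling, filterByExpr (minimum count 10, minimum total 15), robust quasi-likelihood F tests with treatment as the only term, and Benjamini-Hochberg adjustment over all genes tested. A joint fit of the 12 libraries tested the line by treatment interaction and the vehicle contrast on genes in both tables. The SE is the absolute log2 fold change over the square root of F. CPM are TMM-scaled within a line, and over the 12 libraries for vehicle comparisons. Genes removed by the filter held 0.109% of counts in MOLM-13 and 0.0996% in OCI-AML2. Within groups, library pairs had Spearman correlations of 0.986 to 0.99, and no 2 libraries were identical. The script was tested on simulated counts. Alternatives were DESeq2 1.42.0, limma 3.58.1 (voom), other scalings, no filter, the joint fit, other mismatch limits and leaving out each library. Named genes were the 31 members, CDKN1A, MDM2, RPS27 and the 2 smallest adjusted p per direction of each context list and line; 1 further gene of this rule is not reported here. Members, lists and this rule were chosen with earlier results of these data known.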

Additional observations from a re-analysis of the deposited data

Results flagged for a closer look

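The size of the selinexor effect (log2 fold change, selinexor over vehicle) differed between the lines for 18 of the 29 genes tested in both, by the interaction term of the joint edgeR fit (MOLM-13 minus OCI-AML2, adjusted p under 0.05). Among all 12530 genes in the joint fit, 11.1% were called higher and 19.0% lower, or 30.1% in all. The call was lost in at least 1 setting tried for 8 of the 18 (TIGAR, XPC, GADD45A, PLK2, PLK3, ZMAT3, RPS27L and DDB2). A rise that was larger in MOLM-13 was found for CMBL (2.60), TRIM22 (1.07), ZMAT3 (0.32), XPC (0.27) and RPS27L (0.23), all called higher in both lines. TIGAR (1.42), POLH (0.65), PLK3 (0.64), PLK2 (0.55), GADD45A (0.52) and TRIAP1 (0.46) were called higher in MOLM-13 and not called in OCI-AML2. ASCC3 (0.30) was called higher in MOLM-13 and lower in OCI-AML2, and AEN (0.39) was lower in both, by less in MOLM-13. The difference was negative for CD82 (-0.99), PIDD1 (-0.62), DRAM1 (-0.44) and DDB2 (-0.28), which rose in both lines, by less in MOLM-13, and for SESN2 (-0.56), which fell in MOLM-13 and was not called in OCI-AML2. With 3 libraries a group, no single library was tested for standing apart. Line and dose cannot be told apart in these differences.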

How the results depend on the processing

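No called value changed sign under any alternative. Over the other settings, 23 to 26 genes were called higher in MOLM-13 (25 as reported) and 18 to 22 in OCI-AML2 (19), 12 to 16 differences were called higher in MOLM-13 (13) and 4 to 5 lower (5), and 12 to 13 vehicle levels were called higher in MOLM-13 (12) and 13 to 14 lower (13). Leaving out 1 library at a time gave 23 to 25 genes higher and 1 to 2 lower in MOLM-13, 17 to 19 higher and 2 to 4 lower in OCI-AML2, and differences of 9 to 15 higher and 4 to 5 lower. Vehicle levels then gave 12 to 13 higher and 12 to 14 lower, and the other p53-induced genes 24 to 25 higher and 6 lower in MOLM-13 and 22 to 25 higher and 7 to 8 lower in OCI-AML2. The count of genes lower in MOLM-13 was 1 instead of 2 with upper quartile scaling, without vehicle library 3 and without selinexor library 2, since AEN lost its call. In OCI-AML2 the count of genes lower was 4 instead of 2 without selinexor library 2, where TIGAR and SERTAD1 were called lower. TIGAR had passed the filter on low counts there through its vehicle libraries. The call stayed the same in every setting for 25 of 29 genes in MOLM-13, 23 of 31 in OCI-AML2, 16 of 29 differences and 26 of 31 vehicle levels. One library moved a value by over 1.5 times for the SPATA18 vehicle level, fitted at -4.03 log2 and at -6.77 without MOLM-13 vehicle library 3, which held both of its reads, and for TIGAR as described above. With 2 mismatches allowed, 6.06% of the genes' promoter windows and 0.285% of all windows held a p53 element, and with 4 mismatches 24.2% and 4.05%. No paired analysis was possible because the count columns carry no replicate numbers. Depth limits CMBL, EDA2R and SPATA18 in MOLM-13 and GDF15 and TIGAR in OCI-AML2, where a group held few reads.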
